A study of Mus musculus with 17 samples.

Results

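Immunoglobulin genes were taken from the raw count table by symbol: heavy, kappa and lambda variable segments, heavy diversity segments, the constant segments of all 3 loci, and Jchain. The symbol rule found 383 of 23719 genes. Ighmbp2, on chromosome 19, fits the pattern by spelling alone and was left out, so 382 members are reported. They are 185 Ighv, 160 Igkv, 3 Iglv, 20 heavy diversity and 8 heavy constant segments, Igkc, 4 Iglc segments and Jchain.

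Colons came from male C57BL/6 mice aged 32 to 34 weeks. In the Gulf War illness (GWI) group, 8 mice drank pyridostigmine bromide, which reversibly blocks acetylcholinesterase, at 2 mg/kg for 7 days and then had 21 days without it. The 9 Control mice drank water, and both groups ended on day 30. Total counts per mouse ran from 16744096 to 20741212 in Control (median 17761682) and from 16293537 to 18389686 in GWI (median 17428511.5).

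An antibody pairs heavy chains with light chains, and each developing B cell builds its own chains by joining 1 of many variable segments to short joining pieces (and diversity pieces in the heavy chain) ahead of a constant segment. Plasma cells, the B cell descendants that secrete antibody, carry very large amounts of these messages, and a clone that expands repeats the same variable segment in every cell. In the gut most plasma cells make IgA, whose heavy chain comes from Igha, and the J chain links IgA molecules into the form that the epithelial receptor Pigr carries into the lumen.

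Of the 348 variable segments, 201 had a count in at least 1 mouse and 147 had 0 counts in all 17. Among Ighv segments annotated as genes, 94 of 113 had a count, while 13 of 70 Ighv pseudogenes did. Among Igkv segments, 88 of 100 genes and 3 of 60 pseudogenes had a count. Segments with counts were thus mostly those annotated as able to encode a chain. Few segments were well covered, since 23 of 348 had a mean of 10 or more counts per mouse. Of the 20 diversity segments only Ighd1-1 had any count. Diversity segments are shorter than a sequencing read, and joining segments are outside the symbol rule.

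Many variable segments resemble one another, so a read can be assigned to the wrong copy or dropped. Segments whose nearest relative was at least 98% identical over the transcript had a count in 16 of 20 cases, those at 95% to 98% in 79 of 88, and those below 95% in 90 of 108, so detection did not follow identity. Values of single variable segments are uncertain for this reason, and somatic mutation, which moves a sequence away from the reference, adds to it.

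The sequence near the end of a variable segment encodes the conserved cysteine just before the joining point. The pattern TANTNNTGN, searched on the coding strand in the last 60 coding bases, was present in 207 of 216 variable genes (95.8%). Below are the last 60 coding bases of 6 segments that led the counts of single mice, from GENCODE M21 transcripts on GRCm38, with the pattern in capitals. The segments lie at chr12:115158403-115158835 (Ighv1-53, minus strand), chr12:114153180-114153644 (Ighv7-3, minus), chr12:115952538-115953005 (Ighv1-82, minus), chr6:68121046-68121827 (Igkv1-117, plus), chr6:69726573-69727138 (Igkv5-48, minus) and chr6:69304834-69305405 (Igkv4-68, minus).

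Ighv1-53: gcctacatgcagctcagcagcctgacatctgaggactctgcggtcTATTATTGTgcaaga
Ighv7-3: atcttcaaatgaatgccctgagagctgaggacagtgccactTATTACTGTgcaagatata
Ighv1-82: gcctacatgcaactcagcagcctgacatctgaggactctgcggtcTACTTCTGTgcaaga
Igkv1-117: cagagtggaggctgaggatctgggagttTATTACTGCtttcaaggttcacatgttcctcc
Igkv5-48: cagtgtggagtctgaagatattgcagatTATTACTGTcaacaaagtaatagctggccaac
Igkv4-68: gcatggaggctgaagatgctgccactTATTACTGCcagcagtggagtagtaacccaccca

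All members together held 0.0165% to 0.0882% of a Control mouse's counts (median 0.0410%) and 0.0197% to 0.0944% of a GWI mouse's (median 0.0441%). The ranges overlapped almost fully. Per kilobase of exon, Igkc was highest, with a Control median of 104 CPM, followed by Jchain at 49.8 and Igha at 46.8. CPM is the count in each 1000000 counts, with each mouse's total first scaled by its trimmed mean of M-values (TMM) factor. Iglv1 (15.0), Iglc3 (11.7) and Iglc1 (9.17) came next. Means over the 17 mice were higher for these lambda segments (53.5 for Iglv1 and 31.8 for Iglc3), whose values were spread widely between mice. The heavy variable segment of highest mean, Ighv1-53, had a Control median of 1.39, below Ighm at 5.33 and far below Igha. The kappa segment of highest mean, Igkv1-117, had a Control median of 0.643, far below Igkc.

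GWI was compared with Control by the quasi-likelihood test of edgeR, with p-values adjusted over all tested genes by the Benjamini-Hochberg method, and a gene with adjusted p under 0.05 is here named called. A positive log2 fold change means higher in GWI, and each is given with its standard error (SE). The p-values treat the mice as independent. Counts in whole colon do not separate fewer cells from less RNA per cell, so these cannot be told apart. Of 14146 tested genes 3792 were called (26.8%), 1889 of them higher in GWI (13.4%) and 1903 lower (13.5%). With upper-quartile factors in place of TMM, the split was 1214 higher and 2992 lower.

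Among the 21 members with enough counts to be tested, 1 was called higher (Iglc1) and 1 lower (Iglc2), or 9.52%. Unadjusted p was under 0.05 for 6 of the 21, against 41.4% of all genes. A rule of unadjusted p under 0.05 with more than a doubling or halving kept 5 members higher and 1 lower, where 2.42% of all genes met that rule. These were the same 6 members. Their SEs ran from 0.57 (Iglc1) to 0.82 (Ighv1-80), so an unadjusted p under 0.05 already required a change beyond that limit. The larger share of members under this rule is thus not a separate result. Without the filter on low counts 216 members were tested, and 10 were called higher and 2 lower, beside 16.9% of 19717 genes. The median log2 fold change was 0.41 over the 21 members, 16 of them positive, and -0.06 over all tested genes.

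The mice also carry names whose first part is shared by 2 or 3 mice in some cases, and the labels do not say what that part stands for. Control replicates 3, 4 and 5 share it, as do Control replicates 7 and 8, GWI replicates 1 and 2, GWI replicates 3, 4 and 5, and GWI replicates 7 and 8. Each first part holds mice of a single group. Expression was correlated within first parts (consensus correlation 0.621 over all tested genes). With the first part as a random block, limma-voom called 0 of the 21 members, with adjusted p of 0.369 for Iglc1 and 0.287 for Iglc2. Few genes of any kind were called in that fit, 375 higher and 94 lower of 14146. It differs from the main fit in the test as well as in the block. There are 6 first parts in Control and 4 in GWI, so mice that share one are not separate evidence where a gene varies by first part.

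Igha, the constant segment of IgA, ran from 54.0 to 308 CPM in Control (median 125) and from 75.0 to 322 in GWI (median 170). The GWI median was higher, and the ranges overlapped over nearly their whole width. Its log2 fold change was 0.42 (SE 0.33, adjusted p 0.345), and Igha was not called. Ighm, the constant segment of IgM, lay between 5.87 and 15.5 CPM in Control (median 10.0) and between 3.96 and 16.4 in GWI (median 10.2). The groups were alike in median and in range, with a log2 fold change of -0.02 (SE 0.25, adjusted p 0.953).

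Per kilobase, Igha supplied 70.2% to 92.5% of heavy constant counts in Control (median 86.3%) and 75.5% to 93.4% in GWI (median 91.8%). It was the leading heavy constant segment in every mouse of both groups. Ighm supplied 4.24% to 28.4% in Control (median 10.4%) and 4.19% to 22.5% in GWI (median 6.49%). Both shares overlapped between the groups.

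The IgG segments were scarce. Ighg1 had a Control median of 0.398 CPM (0.209 to 6.38) and a GWI median of 1.48 (0.287 to 3.44). Of the 8 GWI mice, 7 were above the Control median, but the highest value of all was in Control replicate 1, and the log2 fold change was 0.23 (SE 0.66, adjusted p 0.813), or 1.22 without that mouse (adjusted p 0.0797). Ighg2b ran from 0.222 to 3.6 CPM in Control and from 0.113 to 2.64 in GWI, again with broad overlap. Its log2 fold change was 0.34 (SE 0.67, adjusted p 0.726). Ighd, Ighe, Ighg2c and Ighg3 had too few counts to be tested. Ighe reached 0.104 CPM in Control and 0.0521 in GWI, and its median was 0 in both groups.

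Jchain, on chromosome 5, lay between 44.4 and 250 CPM in Control (median 125) and between 48.9 and 164 in GWI (median 103). Its GWI median was the lower, opposite in direction to Igha, and the ranges overlapped. The log2 fold change was -0.25 (SE 0.30, adjusted p 0.539), or -0.0329 without Control replicate 1 (adjusted p 0.932). Igkc, the only kappa constant segment, ran from 14.7 to 68.5 CPM in Control (median 55.6) and from 17.6 to 109 in GWI (median 64.0). In 4 GWI mice Igkc was above every Control mouse, while the lower ends of the groups met. Its log2 fold change was 0.39 (SE 0.35, adjusted p 0.402).

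**Figure D1:**
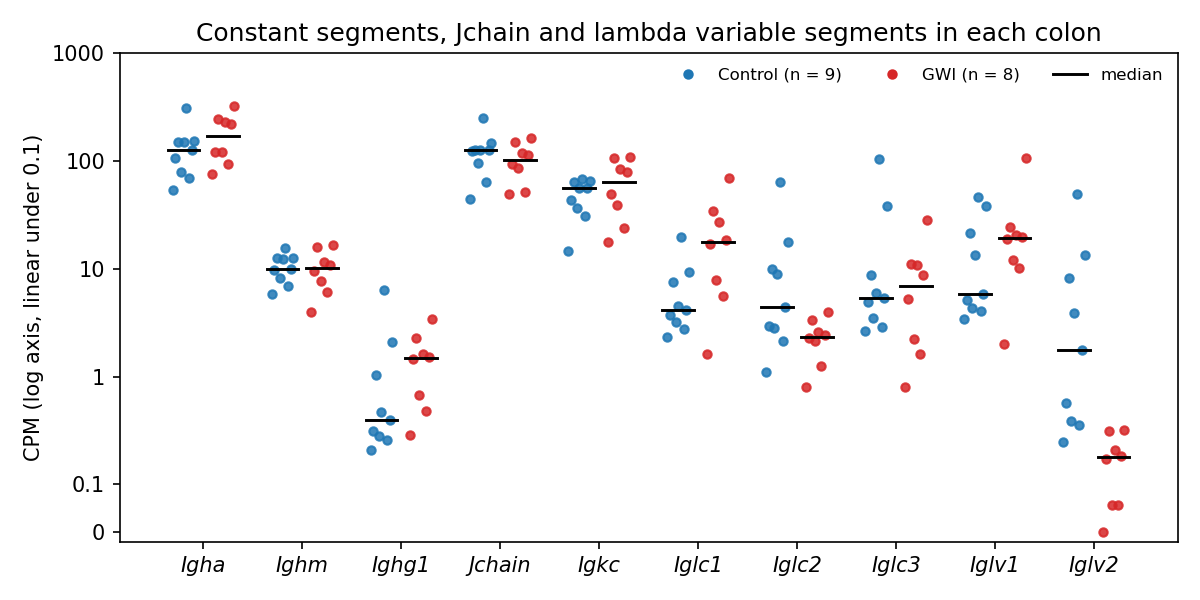
CPM of constant segments and Jchain in each mouse, Control and GWI. Each point is 1 mouse.

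Igkc and Jchain each followed Igha from mouse to mouse. Over the 17 mice, log2 CPM of Igha and Igkc had a Pearson correlation of 0.853 and a rank correlation of 0.89. Without Control replicate 1 and GWI replicate 4, the mice highest in Igha, it was 0.897. Within groups it was 0.793 in Control and 0.925 in GWI. Igha and Jchain correlated at 0.808, or 0.733 without the same 2 mice, with 0.884 in Control and 0.946 in GWI. Mice higher in Igha tended to be higher in Igkc and in Jchain in either group. These 2 relations were chosen after the values had been seen and carry no test, and mice that share a first part of the name are not independent.

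The lambda locus on chromosome 16 held the only called members, Iglc1 and Iglc2. Both calls were lost in the limma-voom fit with the random block on first part (adjusted p 0.369 and 0.287) and with a covariate for tissue mix described below. They were also lost by limma-voom with quality weights and no block, so the change of test and the block cannot be told apart. Mouse lambda genes form separate clusters, and a variable segment mostly joins to constant segments downstream of it. In transcript order on the minus strand the segments are Iglv2, Iglv3, Iglc2, Iglc4, Iglv1, Iglc3 and Iglc1. Iglv2 and Iglv3 thus stand upstream with Iglc2 and Iglc4, while Iglv1 stands with Iglc3 and Iglc1.

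Iglc1 ran from 2.34 to 19.9 CPM in Control (median 4.16) and from 1.61 to 68.8 in GWI (median 17.8). Of the 8 GWI mice, 7 were above the Control median and 3 were above every Control mouse, but 1 was below every Control mouse. Iglc1 rose by a log2 fold change of 1.82 (SE 0.57, p 0.00515, adjusted p 0.0266). Iglc1 was called in 24 of 30 other fits, and its adjusted p ranged from 0.0103 to 0.369 over those fits. Leaving out GWI replicate 4 alone removed the call.

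Iglc2 ran from 1.11 to 64.1 CPM in Control (median 4.42) and from 0.798 to 4.01 in GWI (median 2.35). None of the GWI mice reached the Control median, although the Control range extended down to the GWI values. Iglc2 fell by a log2 fold change of 2.42 (SE 0.69, p 0.002465, adjusted p 0.0171). It was called in 26 of 30 other fits, with adjusted p from 0.0022 to 0.287. Control replicate 1 had 1015 Iglc2 counts and set the upper end, and without that mouse the log2 fold change shrank to -1.40, still called.

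Iglc3 lay between 2.66 and 104 CPM in Control (median 5.30) and between 0.803 and 28.1 in GWI (median 6.98). Medians were close and the ranges overlapped, and the fold change of -1.18 in log2 units (SE 0.81, adjusted p 0.278) became -0.03 without Control replicate 1, which held 1645 Iglc3 counts. Iglv1 ran from 3.41 to 46.3 CPM in Control (median 5.87) and from 2.01 to 106 in GWI (median 19.2). The higher GWI median came with the lowest value also in GWI, and the log2 fold change was 0.76 (SE 0.66, adjusted p 0.389), or -0.0341 without GWI replicate 4. That mouse held 1844 Iglv1 counts, beside 1198 of Iglc1 and 489 of Iglc3.

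Iglv2 had enough counts in too few mice to pass the filter: Control mice had 5 to 787 and GWI mice 0 to 6. In CPM that was 0.245 to 49.7 in Control (median 1.77) and 0 to 0.322 in GWI (median 0.178). In the fit without the filter, Iglv2 was lower in GWI by a log2 fold change of -5.66 (SE 1.20, adjusted p 0.005815). Leaving out Control replicate 1 gave -4.37 (adjusted p 0.00217) and the random block on first part of the name gave -4.26 (adjusted p 0.0939). Those 2 refits were chosen after the data had been seen.

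As a share of Iglv counts, Iglv2 made up 4.39% to 55.5% in Control (median 8.75%) and 0% to 2.5% in GWI (median 1.18%). The groups did not overlap in this share, which was not tested. It was the only one of the many per-mouse summaries computed without overlap, and it was not among those planned. The nearest values rested on few counts, 1 of 40 Iglv counts in GWI replicate 6 and 5 of 114 in Control replicate 5. Its partner Iglc2 was 14.0% to 63.8% of Iglc counts in Control (median 24.2%) and 3.32% to 34.4% in GWI (median 7.86%). Here 7 of 8 GWI mice lay below the Control median, and GWI replicate 6 lay above it. The upstream cluster as a whole supplied 11.9% to 60.7% of lambda counts in Control (median 19.0%) and 1.86% to 26.0% in GWI (median 5.30%). Iglv2 and Iglc2 thus showed the same direction, with overlap in the share of Iglc2 and none in the share of Iglv2. In CPM the Iglv2 ranges did overlap. Iglv3, which lies between them, did not follow: its median was 0.139 CPM in Control and 0.268 in GWI, and its log2 fold change without the filter was -0.03 (adjusted p 0.974).

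The lambda share of light chain constant counts was 15.3% to 75.4% in Control (median 33.8%) and 8.68% to 61.4% in GWI (median 30.1%), with nearly full overlap. This share was not tested. Summed Iglc counts and summed Iglv counts were each above the Control median in 7 of 8 GWI mice.

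Reads can stray between the lambda copies. Iglv1 and Iglv2 are 96.9% identical in their coding sequence, with 11 edits, and Iglc2 and Iglc3 are 95.8% identical, with 13 edits. Iglc1 and Iglc2 are 68.1% identical over the transcript and so are far easier to tell apart. Single counts of Iglv2 in GWI mice may be strays from Iglv1, which was not tested. The lines below are 90 coding bases of each similar pair from GENCODE M21 transcripts on GRCm38, with the bases that differ inside the pair in capitals. Iglv1 and Iglv2 differ at 5 of the 90 and Iglc2 and Iglc3 at 7. The genes lie on the minus strand at chr16:19085017-19085500 (Iglv1), chr16:19260401-19260859 (Iglv2), chr16:19198396-19200351 (Iglc2) and chr16:19065230-19065681 (Iglc3).

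Iglv1: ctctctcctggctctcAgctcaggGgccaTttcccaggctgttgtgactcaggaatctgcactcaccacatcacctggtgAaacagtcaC
Iglv2: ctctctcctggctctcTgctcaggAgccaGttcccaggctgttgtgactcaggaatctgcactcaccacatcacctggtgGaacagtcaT
Iglc2: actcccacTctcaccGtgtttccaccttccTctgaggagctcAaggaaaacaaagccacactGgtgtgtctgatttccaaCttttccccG
Iglc3: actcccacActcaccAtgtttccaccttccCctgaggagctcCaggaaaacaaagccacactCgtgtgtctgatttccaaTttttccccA

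Of heavy and kappa variable segments, 11 were covered well enough to be tested and 0 were called by edgeR at adjusted p under 0.05, with 4 at unadjusted p under 0.05, all higher in GWI, where 41.4% of all genes met the latter rule. The fit without the filter tested every segment with any count, 107 Ighv and 91 Igkv, and called 16.9% of all genes. There 9 of these segments were called and all were higher: Ighv6-3 (log2 fold change 3.60, adjusted p 0.004066), Ighv1-61, Ighv1-63, Ighv5-9, Ighv7-1, Ighv14-2, Igkv4-68, Igkv4-70 and Igkv16-104. Most of these 9 had a mean below 10 counts, and those outside the naming rule were picked after their values had been seen. Ighv7-1, Igkv4-68 and Igkv4-70 were highest in GWI replicates 3 to 5, which share a first part. Ighv7-1 had 28, 100 and 55 counts there and 0 to 3 in the other GWI mice. Ighv1-61 had 0 counts in every Control mouse and never exceeded 3 counts in a GWI mouse. It entered this fit only through GWI counts, so its direction was fixed by how it entered. The fit without the filter does not model first parts. Ighv7-3 lay between 0.0490 and 1.92 CPM in Control (median 0.190) and between 0.123 and 8.32 in GWI (median 1.12). Its log2 fold change was 2.16 (SE 0.81, adjusted p 0.0557). Higher values within GWI were confined to GWI replicates 1 to 5, while GWI replicates 6 to 8 lay at or below the Control median.

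Ighv1-53 ran from 0 to 1.93 CPM in Control (median 0.487) and from 0.416 to 14.4 in GWI (median 1.13). GWI replicate 4, with 250 counts, stood far above the other mice, and the log2 fold change was 1.87 (SE 0.76, adjusted p 0.0738), or 0.69 without that mouse. Igkv1-117 ran from 0 to 3.89 CPM in Control (median 0.260) and from 0.476 to 7.78 in GWI (median 1.93). All 8 GWI mice were above the Control median, although Control replicates 7 and 8 exceeded the GWI median. Its log2 fold change was 1.70 (SE 0.72, adjusted p 0.0821). Igkv1-117 was called without Control replicate 8 (2.44, adjusted p 0.0165), and its value was 0.70 with a covariate for tissue mix, the mean log2 CPM of smooth muscle genes minus that of epithelium genes (adjusted p 0.549). Ighv1-80 was at 0 to 1.71 CPM in Control (median 0.0552) and at 0.172 to 4.82 in GWI (median 0.832), with a log2 fold change of 1.84 (SE 0.82, adjusted p 0.1). Igkv1-110 had 0.284 to 3.35 CPM in Control (median 0.882) and 0.416 to 3.28 in GWI (median 1.39). Its ranges were nearly equal (log2 fold change 0.50, SE 0.46, adjusted p 0.425).

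Variable segments were set against the constant segments of the same locus by dividing their summed counts in each mouse. For the heavy chain the ratio was 0.0408 to 0.123 in Control (median 0.0730) and 0.0492 to 0.165 in GWI (median 0.112). In 7 of 8 GWI mice it was above the Control median, with wide overlap. For kappa it was 0.203 to 0.604 in Control (median 0.397) and 0.236 to 0.554 in GWI (median 0.465), so the GWI range lay inside that of Control. For lambda it was 0.475 to 0.969 in Control (median 0.525) and 0.536 to 1.06 in GWI (median 0.625). All 8 GWI mice were above the Control median for lambda, and again the ranges overlapped.

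Per kilobase of exon the heavy ratio became 0.276 to 0.874 in Control (median 0.535) and 0.348 to 1.20 in GWI (median 0.792). Per kilobase, variable segments thus held fewer counts than constant segments in most mice for the heavy chain and in every mouse for kappa (Control median 0.571, GWI median 0.656). The exon lengths include the membrane exons of the constant segments, which secreted chains lack. For lambda the ratio per kilobase was 0.606 to 1.18 in Control (median 0.700) and 0.631 to 1.24 in GWI (median 0.766). Per kilobase 5 of 8 GWI mice were above the Control median for the heavy chain and 5 of 8 for lambda, fewer than by summed counts. These ratios were not tested.

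Clonal spread was described by the effective number of variable segments, which is the number of equally used segments that would give the same Shannon diversity. For Ighv it was 12.4 to 36.8 in Control (median 26.9) and 9.68 to 32.4 in GWI (median 27.6). The lowest were Control replicate 1 and GWI replicate 5, so each group had a mouse with narrow use. For Igkv it was 23.1 to 36.5 in Control (median 29.5) and 12.9 to 33.8 in GWI (median 24.7). GWI replicate 5 was lowest here too, and 6 of 8 GWI mice lay below the Control median.

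Depth of these segments differed between mice, since Ighv counts ran from 64 to 381 in Control and from 109 to 983 in GWI. At an equal 64 Ighv counts, the expected number of segments seen was 18.4 to 32.4 in Control (median 28.8) and 14.1 to 29.7 in GWI (median 28.1). At an equal 122 Igkv counts it was 34.3 to 39.6 in Control (median 37.2) and 26.8 to 40.6 in GWI (median 35.5). At equal depth the Ighv medians were thus close, and in the opposite order to the effective numbers. The Igkv median stayed lower in GWI, with 2 of 8 GWI mice above the Control median. The low end belonged to GWI replicate 5 in both loci.

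**Figure D2:**
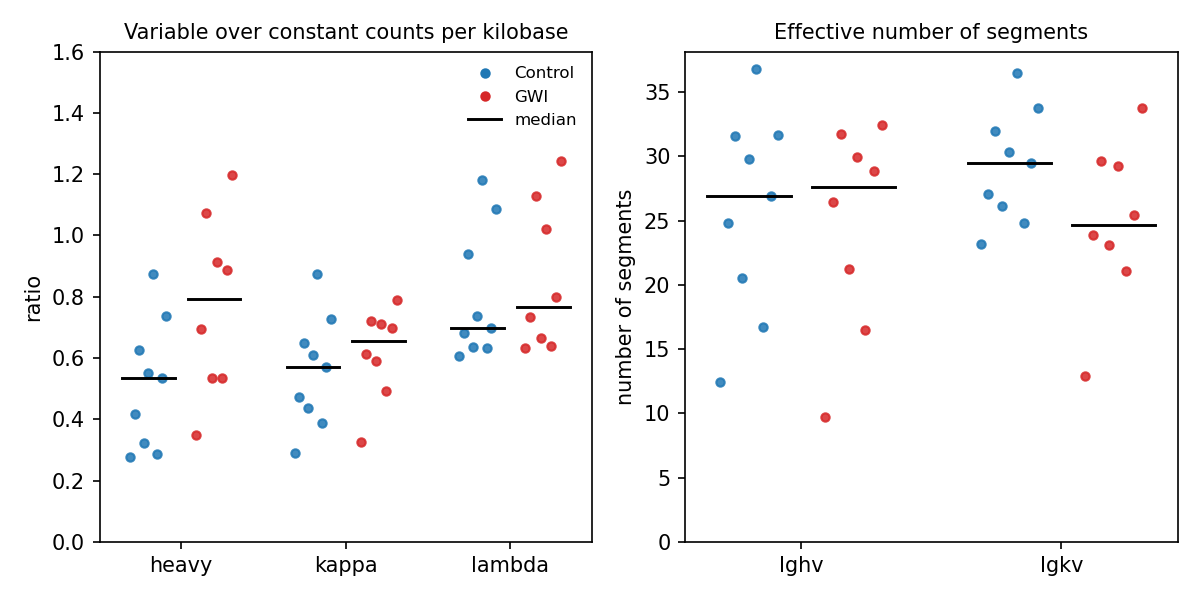
Ratio of variable to constant segment counts per kilobase and effective number of variable segments in each mouse, Control and GWI. Each point is 1 mouse.

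The leading Ighv segment held 9.71% to 25.7% of a Control mouse's Ighv counts (median 11.8%) and 10.2% to 29.9% of a GWI mouse's (median 15.9%). The leading Igkv segment held 6.65% to 18.4% in Control (median 13.4%) and 10.6% to 37.6% in GWI (median 18.4%). For each locus 7 of 8 GWI mice were above the Control median, with overlap. Across 17 mice there were 10 different leading Ighv segments and 12 different leading Igkv segments. Ighv1-53 led in 4 mice, 3 of them Control, and Igkv1-117 led in 3.

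The most concentrated use was in GWI replicate 5. Ighv7-3 supplied 85 of its 284 Ighv counts (29.9%, 95% interval 24.7 to 35.6) and Igkv4-68 supplied 111 of its 295 Igkv counts (37.6%, 32.1 to 43.4). These intervals cover counting error only. In Control replicate 1, Ighv9-4 held 98 of 381 Ighv counts (25.7%, 21.4 to 30.4) and Ighv1-22 held another 97. In GWI replicate 1, Ighv1-82 held 135 of 750 Ighv counts (18.0%, 15.3 to 20.9) and Igkv5-48 held 257 of 1156 Igkv counts (22.2%, 19.9 to 24.7). Large single segments thus occurred in both groups. Some led in more than 1 mouse, as Igkv4-68 did in GWI replicates 4 and 5, which share the first part of their names. Whether 1 clone or several lay behind a segment was not tested, because gene counts do not show the joined sequence.

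Shared use between 2 mice was measured as the overlap of their segment shares, where 100% would mean identical use. Ighv overlap between mice of different groups was 17% to 56.2% over 72 pairs (median 36.3%). Within a group, for the 55 pairs with different first parts of the name, it was 17.7% to 55.8% (median 35.9%). Those medians were close. Over all pairs within a group, the Ighv median was 36.2% in Control and 41.0% in GWI, and the mouse nearest in use was of the same group for 13 of 17 mice in each locus. For the 9 pairs sharing a first part it was 44.1% to 71.5% (median 55.3%), the highest of these medians, with some overlap of ranges. The shares were not brought to equal depth, and few counts lower the overlap. Control replicates 2, 6 and 9, with 64, 65 and 89 Ighv counts, share no first part with another mouse. How far depth adds to the differences between kinds of pair, or between Control and GWI, was not tested. Igkv overlap had the same order, with medians of 42.0% between groups, 41.8% within a group and 61.5% within a first part.

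GWI replicates 1 and 2, which share a first part, were the most alike of all pairs in both loci, at 71.5% for Ighv and 74.0% for Igkv. Ighv1-82 and Igkv5-48 led in both of these mice. Of the 12 mice with at least 1 other mouse of the same first part, the mouse nearest in Ighv use was such a mouse for 8, and for 10 in Igkv use. The comparison by first part was chosen after the values had been seen and carries no test.

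**Figure D3:**
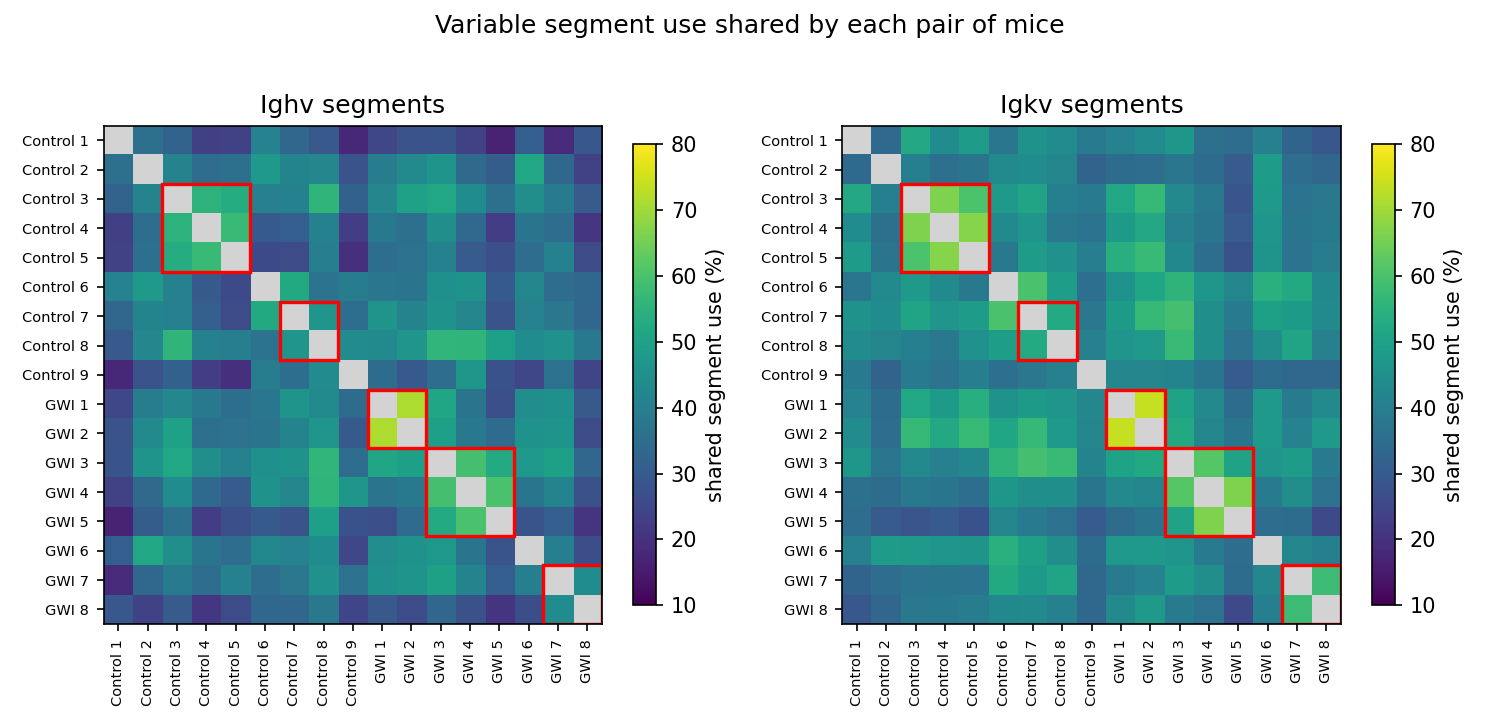
Overlap of Ighv and of Igkv use for each pair of mice, in percent. Boxes enclose mice that share the first part of the sample name.

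Ighv1, the largest family, held 40.3% to 56.7% of Ighv counts in Control (median 48.4%) and 34.9% to 52.0% in GWI (median 49.0%). The Igkv1 family held 7.98% to 25.3% of Igkv counts in Control (median 16.4%) and 11.8% to 23.0% in GWI (median 19.6%). Neither family separated the groups. Igkv8 differed more in median, at 6.92% to 22.8% in Control (median 15.5%) and 4.44% to 14.8% in GWI (median 8.85%), again with overlap. The Ighv7 family had medians of 3.88% and 4.84% and reached 49.3% in GWI replicate 5.

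Genes of the cells that make or handle antibody were set beside the members. Of 13 tested plasma cell genes, 2 were called higher and 0 lower, where 13.4% of all genes were called higher, and their median log2 fold change was 0.03. Both calls, Cd38 and Sdc1, were lost with the random block on first part (adjusted p 0.0647 and 0.0809). Cd38 ran from 75.7 to 144 CPM in Control (median 126) and from 134 to 192 in GWI (median 179), so the groups overlapped only at the edge. It rose by a log2 fold change of 0.53 (SE 0.12, adjusted p 0.004982), and with the tissue covariate the value was 0.32 (adjusted p 0.0872). Sdc1 ran from 160 to 300 CPM in Control (median 214) and from 247 to 339 in GWI (median 310). Every Control mouse except Control replicate 1 lay below all GWI mice, and Sdc1 rose by 0.46 in log2 units (SE 0.12, adjusted p 0.0103). Epithelial cells also express Sdc1. Mzb1, which is more restricted to plasma cells, was not called (log2 fold change -0.47, adjusted p 0.477), and neither was Xbp1 (0.21). Mean CPM in Control was 119 for Cd38 and 218 for Sdc1, against 1.88 for Mzb1. Which cells supplied the Cd38 and Sdc1 counts was not tested. Pou2af1 (-0.55), Slamf7 (-0.48), Eaf2 (-0.41), Irf4 (-0.32) and Ccr10 (-0.29) also had negative log2 fold changes and were not called. Of the 13 genes, 7 had positive values. Apart from Cd38 and Sdc1, these genes were picked after their values had been seen.

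B cell genes were near the limit of counting. Of 16, 4 were tested and 0 were called by edgeR, with 0 at unadjusted p under 0.05, where 26.8% and 41.4% of all genes were, and 15 of them never exceeded 51 counts in a mouse. Of 13 germinal centre and follicle genes, 5 were tested and Ltb alone was called, lower in GWI as were 13.5% of all genes (log2 fold change -0.90, SE 0.24, adjusted p 0.012; with the random block on first part 0.2). Ltb lay between 1.86 and 3.48 CPM in Control (median 2.37) and between 0.504 and 2.02 in GWI (median 1.45). Its ranges overlapped only between 1.86 and 2.02 CPM.

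Of 13 tested genes for IgA induction, plasma cell survival and export, Cxcr4 and Itga4 were called, both lower, where 13.5% of all genes were. Both calls were lost with the random block on first part (adjusted p 0.129 and 0.198). Cxcr4 had a log2 fold change of -0.86 (SE 0.25, adjusted p 0.0194) and Itga4 of -0.53 (SE 0.19, adjusted p 0.0433). Itga4 was called in only 12 of 30 other fits, and its log2 fold change was -0.089 with the tissue covariate (adjusted p 0.753). Pigr, which exports the IgA that Igha and Jchain build, ran from 1401 to 3417 CPM in Control (median 1946) and from 2003 to 3711 in GWI (median 2526). All GWI mice were above the Control median, and GWI replicate 1 was above every Control mouse, but Pigr was not called (log2 fold change 0.32, SE 0.20, adjusted p 0.219). Pigr was called in 1 of 30 other fits, limma-voom with quality weights (adjusted p 0.00105). Its log2 fold change ran from 0.0843 to 0.614 over those fits, and the adjusted p was 0.811 with the tissue covariate. Il21, also picked after its values had been seen, had 0 counts in every mouse.

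Among 6 tested genes of the Fc receptor list, 2 were called lower, where 13.5% of all genes were. Unadjusted p was under 0.05 for 5 of the 6, Fcgrt among them, against 41.4% of all genes. The median log2 fold change was -0.594 for these 6 genes and -0.345 for 10 macrophage genes. Fcgr2b fell by a log2 fold change of 0.58 (adjusted p 0.0173) and Fcgr3 by 0.71 (adjusted p 0.0243). Fcgrt, the most abundant, had a positive fold change and was not called (0.42 in log2 units, SE 0.18, adjusted p 0.093). With the random block on first part, Fcgr2b and Fcgr3 (adjusted p 0.2 and 0.226) were no longer called.

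Genes of other tissue layers also differed. Of 10 smooth muscle genes, 7 were called lower (13.5% of all genes were), and of 11 colon epithelium genes, 5 were called higher (13.4% of all genes). All 8 adipocyte genes had positive fold changes (median log2 fold change 1.03), and 2 were called. With the random block on first part, Cdh1 alone of the named genes in these 3 lists was still called (adjusted p 0.0493). Summed smooth muscle genes ran from 3690 to 23920 CPM in Control (median 11580) and from 3658 to 11830 in GWI (median 5142), with 5 of 9 Control mice among the GWI values. Summed epithelium genes had medians of 33250 and 38330 CPM, and adipocyte genes 181 and 342. With the tissue covariate 0 of the 21 members were called, beside 2203 genes higher and 2465 lower of 14146. Log2 fold changes were 1.64 for Iglc1 (adjusted p 0.0915) and -2.15 for Iglc2 (adjusted p 0.082). Ighm (0.51), Igkv6-15 (-0.52) and Igkv5-43 (-0.41) turned direction in that fit. Among 7 tested T cell genes 0 were called by edgeR, with 0 at unadjusted p under 0.05, where 26.8% and 41.4% of all genes were. Of 10 macrophage genes Mrc1 alone was called, lower as were 13.5% of all genes (adjusted p 0.0287). Unadjusted p was under 0.05 for 4 of the 10 macrophage genes, and 1 of the 10 had a positive fold change. Mrc1 was called in 22 of 30 other fits, with a log2 fold change of -0.22 with the tissue covariate (adjusted p 0.433).

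The main limits are these. Whole colon RNA gives no joined sequences, so clones were seen only through segment names. Most variable segments had a handful of counts per mouse, and near copies share reads. First parts of the sample names lie wholly inside 1 group each, which leaves 6 in Control and 4 in GWI, and the labels do not say what they stand for. Protein, cell numbers and the site of the sampled colon were not measured in these counts. Variable to constant ratios, effective numbers and overlaps are descriptions without tests, and the division by first part was made after the data had been seen.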

How the data were processed

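Reads were trimmed by the authors (Trimmomatic 0.36) and aligned to GRCm38 (STAR 2.5.2b), and they deposited a table of raw counts per gene from featureCounts, with 1 column for each of the 17 mice. The annotation release and strand setting are not stated. Everything else was computed from those counts with R 4.3.3, edgeR 4.0.16 (filterByExpr at its defaults, TMM factors, robust quasi-likelihood fit with condition as the only term), limma 3.58.1 and DESeq2 1.42.0. The fitting code was tested on simulated data. Members and lists were chosen with earlier results of these data known. Genes were named by rule: all constant segments and Jchain, the 5 variable segments per locus with the highest CPM per kilobase, the leading Ighv and Igkv segment of each mouse, any called variable segment (at most 5 each way), and in each list the called genes (at most 5) and the gene of highest mean CPM. Others named are marked as picked after their values had been seen. Ratios, shares, effective numbers and overlaps use raw counts. Sequence identities and exon lengths came from GENCODE M21. Alternatives were other scaling factors, tests, filters, blocks, a tissue covariate and each mouse left out in turn.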

Additional observations from a re-analysis of the deposited data

Results flagged for a closer look

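Each quantity was examined within each group for a mouse far from the others, by the gap to its nearest neighbor over the group's range (Dixon's ratio at the 95% level). Chance picks out about 1 in 20 groups, and here 40 of 153 sets were picked out, all at the high end. Control replicate 1 accounted for 13 of them, GWI replicate 1 for 6 and GWI replicate 4 for 4. Many variable segments were named because they led in a single mouse, so a high value in that mouse is built in and the excess over chance cannot be read from these sets. Sets of segments expressed together are not independent, and skewed values are picked out more often.

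Control replicate 1 was far above the other Control mice in Igha (308 CPM, next 154), Ighg1 (6.38), Ighg2b (3.601), Iglc2 (64.1, next 17.9), Iglc3 (104, next 38.1), Jchain (250, next 145), Ighv1-22 (6.13), Ighv9-4 (6.19), Iglv2 (49.7, next 13.4) and Iglv3 (1.45). The same mouse was far above in the share of all counts held by members (0.0882%, next 0.0499%) and in the epithelial genes Cdh1 (1204 CPM) and Vil1 (919.5 CPM).

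Other Control mice far above their group were Control replicate 8 in Ighg3 (0.623 CPM) and Ighv7-3 (1.92), Control replicate 7 in Iglc1 (19.9, next 9.34) and Igkv4-68 (0.883), Control replicate 2 in Igkv17-121 (1.705, next 0.223), Control replicate 3 in Igkv1-135 (2.75) and Control replicate 9 in Igkv8-30 (3.69) and Igkv16-104 (0.488). Control replicate 9 was also far above in Car1 (29280 CPM), and Control replicate 6 in Itga4 (11.4) and Mylk (3095).

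GWI replicate 1 was far above the other GWI mice in Ighd (1.51 CPM, next 0.344), Ighv1-82 (7.03, next 1.93), Igkv5-48 (13.4, next 2.61) and Igkv1-135 (4.06), and in Ighe and Iglc4, each at 0.0521 CPM from a single count. GWI replicate 4 was far above in Iglc3 (28.1, next 11.1), Ighv1-53 (14.4, next 2.58), Ighv1-26 (2.35) and Iglv1 (106, next 24.5).

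GWI replicate 5 was far above its group in the share of the leading Igkv segment (37.6%, next 22.2%). GWI replicate 6 was far above in Ighv2-9-1 (2.06 CPM) and Igkv12-41 (3.50), GWI replicate 8 in Ighv9-4 (0.773) and Ighv1-5 (0.832), and GWI replicate 7 in Cidec (120). No cause was tested for any of these values.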

How the results depend on the processing

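Igha, Igkc and Jchain kept their direction and were not called in any of 30 other fits, but their sizes moved. Over those fits the log2 fold change ran from 0.245 to 0.738 for Igha and from 0.163 to 0.537 for Igkc. For Jchain it ran from -0.376 to -0.0329, the latter without Control replicate 1. The lowest adjusted p for Igha was 0.0747, by edgeR without Control replicate 1. The alternatives with the first part of the sample name as a random block, and with Control replicate 1 and GWI replicate 4 both left out, were chosen after seeing the data. Where a call was lost or a direction turned, the cause was not tested.

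Members called higher numbered 3 with DESeq2, 2 with limma-voom and quality weights, 10 without the filter, 0 with the covariate for muscle against epithelium, 0 with the random block on first part of the name, 0 without Control replicate 1 and GWI replicate 4, and 5 by unadjusted p under 0.05 with absolute log2 fold change over 1. Members called lower numbered 0 with limma-voom and quality weights, 2 without the filter, 0 with the covariate and 0 with the random block on first part. Over all genes, calls higher and lower numbered 2171 and 2444 with DESeq2, 3901 and 4175 with limma-voom and quality weights, 1657 and 1674 without the filter, 2203 and 2465 with the covariate, 375 and 94 with the random block on first part, and 2184 and 1903 without Control replicate 1 and GWI replicate 4. The members gained were Ighv1-53 and Ighv7-3 with DESeq2, and Ighv1-53 and Igkv1-117 with limma-voom, where Iglc1 and Iglc2 were lost.

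Iglc1 had log2 fold changes of 1.75 with limma-voom and quality weights (adjusted p 0.0788), 1.64 with the covariate (adjusted p 0.0915), 1.13 with the random block on first part (adjusted p 0.369) and 1.21 without Control replicate 1 and GWI replicate 4 (adjusted p 0.0999). Iglc2 had -0.68 (adjusted p 0.196), -2.15 (adjusted p 0.082) and -1.66 (adjusted p 0.287) in the first 3 of these.

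With limma-voom and quality weights the direction turned for Ighg2b (-0.11), Iglc3 (0.24), Rgs13 (0.44) and Car1 (0.0734). With the covariate it turned for Ighm (0.51), Igkv6-15 (-0.52), Igkv5-43 (-0.41), Txndc5 (-0.23), Cd14 (-0.15), Mylk (0.0412), Synpo2 (0.0042), Myh11 (0.49) and Lmod1 (0.40). The covariate is built from muscle and epithelium genes, so for Mylk, Synpo2, Myh11 and Lmod1 it removes their own signal. Upper-quartile factors turned Cd14 (-0.0226), and the random block on first part turned Ighg2b (-0.14) and Car1 (0.215).

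The replicate numbers do not pair the mice: over 8 same-numbered pairs the deviations correlated from -0.506 to 0.115, 1 pair was over 0.1, and 0 Control mice correlated best with their own number. With the number as a block, 0 members were called higher and 0 lower of 17 tested, beside 1404 and 814 of all 14093 genes (Iglc1 1.63, adjusted p 0.072; Iglc2 -1.43, adjusted p 0.0957), and Rgs13 (0.10) and Car1 (0.27) turned.

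Leaving out each mouse in turn gave 0 to 2 members called higher. Log2 fold changes ran from -0.0812 to 1.22 (without Control replicate 1) for Ighg1, from -0.0172 to 0.51 for Ighg2b, from -0.15 to 0.10 for Ighm, from 1.32 to 2.26 for Iglc1, from -2.58 to -1.40 for Iglc2, from 0.69 to 2.15 for Ighv1-53, from -0.15 to 0.56 for Igkv6-15, from -0.0255 to 0.46 for Igkv5-43, from -0.0341 (without GWI replicate 4) to 1.16 for Iglv1 and from -0.19 to 0.21 for Car1. Iglc1 was no longer called without GWI replicate 4 alone (adjusted p 0.0839).

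With only segments of mean count 10 or more, the median ratio of variable to constant counts was 0.0278 in Control and 0.0541 in GWI for the heavy chain, and 0.169 and 0.206 for kappa. Per kilobase it was 0.535 and 0.792 for the heavy chain, and 0.571 and 0.656 for kappa. The median effective number with only those segments was 5.56 and 5.96 for Ighv, and 8.58 and 7.03 for Igkv. By the inverse Simpson index it was 18.1 in GWI for Ighv, and 19.5 and 14.8 for Igkv. At equal counts 37.2 and 35.5 Igkv segments were expected. For the ratios and for Igkv the GWI median stayed on the same side of the Control median in each of these. For Ighv the order turned by the inverse Simpson index (20.3 in Control), at equal counts (28.8 and 28.1) and without segments 98% or more identical to another (24.1 and 23.9). Depth limits the variable segments, most of which had a mean under 10 counts.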
